A study of Mus musculus with 8 samples.

Results

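The genes described here are the cytosolic, mitochondrial and small heat shock proteins, the J-domain proteins of classes A, B and C, the subunits of the CCT chaperonin, prefoldin and the BAG proteins. They were taken by their gene symbols alone, without Hspa5 and Dnajc3, and came to 65 of the 8789 named genes on the arrays, with 104 probes. Of these, 62 had a value in all 4 mice. Dnajc1, Dnajc18 and Dnajc5g did not and were not tested.

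The livers came from 4 male Eps8KO mice, which lack the actin remodelling protein Eps8 in every tissue, and the reference was RNA pooled from livers of male WT mice. Animals of both genotypes were 17 weeks old, and according to the methods of the study the line was crossed back into C57BL/6. Every Eps8KO liver was hybridised to 2 cDNA arrays against the pool, once in Cy5 and once in Cy3. The labels disagree on the size of the pool, since they list 5 WT animals, speak of 6 where the labelling is described and of 4 where the experiment is summarised. The pool counts as 1 control sample, so the spread between WT mice is missing from every test. The separate mice are the replicates, and n = 4 unless a fit of the 8 arrays is named.

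Heat shock proteins bind unfolded polypeptides and help them to fold, to reach another compartment or to be degraded. Hsp70 proteins work in cycles of ATP hydrolysis that J-domain proteins start and that BAG proteins and Hsp110 proteins end by nucleotide exchange, while Hsp90, CCT and prefoldin act on narrower sets of client proteins. In stressed cells the transcription factor Hsf1 binds heat shock elements and raises a subset of these genes together, and the liver, with its heavy protein synthesis, also uses them without stress.

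All values are log2 ratios of Eps8KO over WT, so that a ratio of -1 is a level halved in Eps8KO liver. They give no level of a gene, so genes were not compared in abundance, and the tissue could not be checked by how strongly its marker genes were expressed. Ratios of 6 measured hepatocyte markers had a median of 0.01, those of 3 macrophage markers 0.05 and those of 8 markers of other blood cells -0.01. Medians were -0.11 for 4 markers of stellate cells and fibroblasts, -0.44 for 3 of endothelium and -0.05 for 4 of bile duct. They were -0.24 for 2 markers of fat and 0.13 for 3 of muscle. Cpa1, the 1 measured pancreas marker, had a ratio of -0.95, which combines -2.87 with Eps8KO RNA in Cy5 and 0.96 with Eps8KO RNA in Cy3. Krt7, a keratin of bile duct cells, had the lowest ratio of these markers (-1.51 ± 0.40, adjusted p = 0.454, limma). It had values on 4 arrays only, 1 for each mouse, so the dyes were not balanced in it. The other bile duct markers were at 0.14 (Krt19), -0.05 (Epcam) and -0.06 (Sox9). The part of any cell type in the chaperone ratios was not tested. In whole liver, fewer cells of a type and less RNA per cell cannot be told apart. Eps8 itself was without a named probe, and the study states that liver does not express it. The genotype was therefore not checked in these data.

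Most of these chaperones had ratios near 0 in Eps8KO liver, and the lowest were Dnaja1, Bag3, Hsp90aa1 and Dnajb11 among those on all 8 arrays. The median ratio was -0.06 over the 62 chaperones and 0.02 over all 15455 features tested, and 38 chaperones (61.3%) lay below 0, against 47.2% of all features. At an adjusted p under 0.05 in limma, 0 chaperones were called higher and 0 lower, as was the case for 0.0% of all features in each direction, and the smallest adjusted p of a chaperone was 0.66. At an unadjusted p under 0.05, 1 chaperone was higher (Dnajc17), beside 2.15% of all features. At the same threshold 6 were lower (Dnaja1, Bag3, Hsp90aa1, Dnajc28, Dnajb11 and Cct3), beside 3.09% of all features. With a change of at least 1.6-fold added, Dnajc17 remained as the 1 higher, beside 1.06% of all features, and Dnaja1 and Dnajc28 as the 2 lower, beside 1.57%. In 9 chaperones all 4 mice lay below 0, beside 7.07% of all features, and in 2 all 4 lay above 0, beside 7.54%. Besides the 6 just named, the 9 were Cct5, Hspd1 and Hspb1, and those above 0 were Dnaja4 and Dnajc17.

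**Figure D1:**
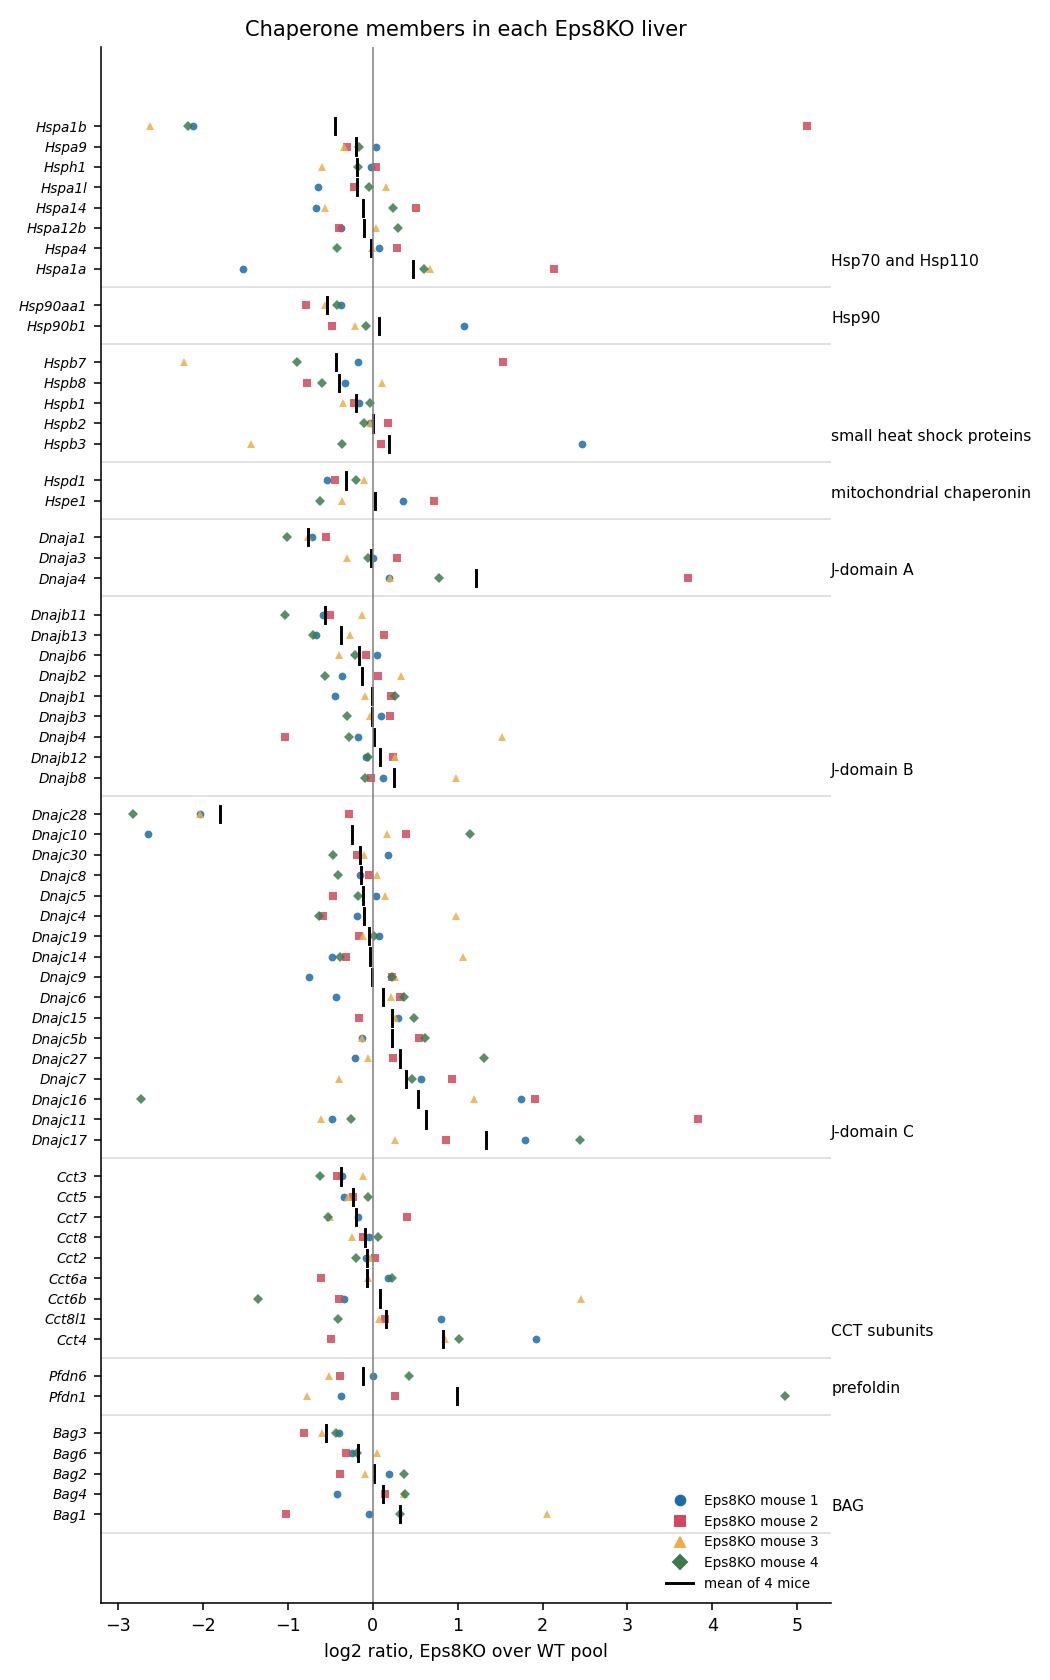
Log2 ratio (Eps8KO over WT pool) of each of the 62 measured chaperones, with 1 symbol for each of the 4 mice and a bar at their mean, grouped by family and ordered by mean within it. Most means lie close to 0, and the widest spreads belong to Hspa1b, Pfdn1, Dnajc16 and Dnajc11, in each of which 1 mouse lies on the other side of 0 from most others or far above them.

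Heat inducible chaperones, a list of 15 genes that heat raises in many cell types, had 12 members on the arrays, all measured. Their median ratio was -0.25, and the medians in the single mice were -0.38, -0.33, -0.35 and -0.35, all below 0. Of the 12, 9 lay below 0, beside 47.2% of all features. In 5 all 4 mice lay below 0 (Dnaja1, Bag3, Hsp90aa1, Hspd1 and Hspb1), beside 7.07%. At an unadjusted p under 0.05 in limma, 3 were lower, beside 3.09%, and 0 higher, beside 2.15%. The list was chosen with earlier results of these data known. Of the genes on the list, Hspa8 and Hsp90ab1, the constitutive Hsp70 and Hsp90 of the cytosol, had no named probe. The study itself lists Hspa8 as 1.6-fold lower in Eps8KO liver on its chip, which could not be checked here. The median was -0.29 where Eps8KO RNA carried Cy5 and -0.01 where it carried Cy3, over the genes with values on all 4 arrays of that orientation. Over all available values the 12 genes had medians of -0.32 in Cy5 and -0.0009 in Cy3, and all features -0.19 and 0.24.

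The heat shock element is a repeat of GAA units in alternating orientation, and it is shown here because 10 of the 11 heat inducible chaperones with a promoter sequence held one. Promoter windows of 300 bases, with 250 before the start of transcription, came from RefSeq (GRCm38.p6) and were found for 54 of the 65 genes. A pair of units, GAANNTTC or TTCNNGAA, which covers both strands, was found in 20 of these 54 genes (37.0%) and in 17.0% of 27025 genes overall. With 1 more unit, GAANNTTCNNGAA or TTCNNGAANNTTC, which overlaps the pair, the counts were 4 of 54 (7.41%), beside 0.662% of all genes. The endoplasmic reticulum stress element, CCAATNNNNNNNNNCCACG on either strand, was found in 1 of the 54, Hsp90b1, and in 0.137% of all genes. A match is a match of letters and does not show that a factor binds there. The 250 bases before the start follow for Dnaja1, which had the lowest ratio among chaperones on all 8 arrays, for Hspd1, Hsph1 and Hspb1, heat inducible genes with other arrangements of the motif, and for Hsp90b1. They are read 5′ to 3′ in the direction of the gene, and capitals mark the motifs (the endoplasmic reticulum stress element in Hsp90b1, pairs of heat shock units in the others).
Dnaja1, chr4:40722218-40722467, plus strand: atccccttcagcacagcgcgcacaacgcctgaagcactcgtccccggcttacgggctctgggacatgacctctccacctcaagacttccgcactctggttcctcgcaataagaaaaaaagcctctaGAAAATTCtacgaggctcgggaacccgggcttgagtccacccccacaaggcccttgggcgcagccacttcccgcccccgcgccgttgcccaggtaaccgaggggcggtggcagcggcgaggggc
Hspd1, chr1:55087933-55088182, minus strand: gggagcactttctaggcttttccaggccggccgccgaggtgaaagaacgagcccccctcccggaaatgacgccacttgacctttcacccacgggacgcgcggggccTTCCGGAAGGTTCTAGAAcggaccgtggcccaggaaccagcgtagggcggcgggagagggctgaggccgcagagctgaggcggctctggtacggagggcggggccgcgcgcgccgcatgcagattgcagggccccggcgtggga
Hsph1, chr5:149636316-149636565, minus strand: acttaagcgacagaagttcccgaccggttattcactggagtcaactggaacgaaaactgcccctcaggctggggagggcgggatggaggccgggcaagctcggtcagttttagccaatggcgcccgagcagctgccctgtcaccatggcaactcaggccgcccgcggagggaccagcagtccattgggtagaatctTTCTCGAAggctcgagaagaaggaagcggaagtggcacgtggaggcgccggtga
Hspb1, chr5:135887669-135887918, plus strand: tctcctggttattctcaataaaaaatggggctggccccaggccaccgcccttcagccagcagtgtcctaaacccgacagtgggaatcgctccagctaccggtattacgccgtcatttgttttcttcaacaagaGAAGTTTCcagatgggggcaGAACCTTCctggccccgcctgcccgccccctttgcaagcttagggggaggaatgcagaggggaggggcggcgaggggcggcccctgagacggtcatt
Hsp90b1, chr10:86705445-86705694, minus strand: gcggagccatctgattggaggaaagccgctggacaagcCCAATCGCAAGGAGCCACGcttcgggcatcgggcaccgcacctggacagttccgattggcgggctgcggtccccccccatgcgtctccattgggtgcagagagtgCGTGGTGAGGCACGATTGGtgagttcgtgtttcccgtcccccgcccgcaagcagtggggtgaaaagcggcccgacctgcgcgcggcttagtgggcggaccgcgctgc

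A gene counted as holding a motif if any of its windows did. Where a gene had several windows, the one with the most matches before the start was printed. Dnaja1 had 3 windows, and the printed one held 1 pair, 116 bases before the start. Hspb1 held 2 separate pairs, 109 and 89 bases before its start. The stretch printed for Hsph1 held 1 pair, 46 bases before the start. Over both of its windows, Hsph1 is one of the 4 genes with the longer element, with Dnajb6, Hspd1 and Hspe1. In Hspd1 3 pairs overlapped in a stretch of 18 bases that ended 126 bases before the start. Hspe1, which lies beside Hspd1 on the other strand, had the same stretch in its own window. The 19 measured chaperones with a pair had a median ratio of -0.16, with 12 below 0, and the 33 measured ones with a window and no pair had a median of -0.03, with 22 below 0. At an unadjusted p under 0.05, 2 of the 19 were lower and 0 higher, and 3 of the 33 were lower and 1 higher. Of all features, 47.2% lay below 0, and 3.09% were lower and 2.15% higher at that threshold.

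Dnaja1, the main class A J-domain partner of cytosolic Hsp70, had ratios of -0.71, -0.54, -0.76 and -1.01 in the 4 Eps8KO mice. Every mouse lay below 0, with mouse 4 lowest. The mean was -0.76 ± 0.19 (SD), a level 1.69-fold lower in Eps8KO than in WT liver, with an unadjusted p of 0.00315 and an adjusted p of 0.66 in limma. All 8 arrays lay below 0, and the mean was -0.38 with Eps8KO RNA in Cy5 and -1.13 with Eps8KO RNA in Cy3. In a fit of the 8 arrays with a term for the dye and the mouse as a block, its adjusted p was 0.0609. The correlation between arrays of a mouse was estimated at -0.00244 there, so that fit treats the 8 arrays nearly as separate replicates, and its p is not that of 4 mice.

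Hsp90aa1, the inducible cytosolic Hsp90, had ratios of -0.37, -0.79, -0.57 and -0.42. All mice lay below 0, and mouse 2 was lowest. The mean was -0.54 ± 0.19 (adjusted p = 0.848, limma), and the mean of its probes lay below 0 on all 8 arrays. The 2 probes did not give the same value, since one averaged -1.11 over the mice and the other 0.03. The low ratio of the gene is that of the first probe alone.

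Bag3, a nucleotide exchange factor that links Hsp70 to small heat shock proteins and to autophagy, had ratios of -0.39, -0.80, -0.59 and -0.43, all below 0 and lowest again in mouse 2. The mean was -0.56 ± 0.19 (adjusted p = 0.838, limma), and both probes lay below 0, at -0.79 and -0.32. The mean of both probes lay below 0 on 7 of 8 arrays. Bag6, which guards newly made tail-anchored membrane proteins, averaged -0.17 ± 0.16 with 3 of 4 mice below 0, and the 5 BAG genes together had a median of 0.02.

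Among the Hsp70 proteins the inducible pair was too variable to place. Hspa1a had ratios of -1.53, 2.14, 0.68 and 0.61 in the 4 mice, with a mean of 0.48 ± 1.51. Hspa1b, measured on 5 arrays, had ratios of -2.12, 5.12, -2.62 and -2.17. The dyes were not balanced in Hspa1b, since mouse 2 had a value in Cy3 alone and mice 1 and 4 in Cy5 alone. Its mean was -3.19 with Eps8KO RNA in Cy5 and 2.57 with Eps8KO RNA in Cy3. Mouse 2 was the highest in both genes, and the mean of Hspa1b was -0.45 with mouse 2 and -2.30 without it. Both genes are nearly identical in sequence, so that cDNA probes may not tell their transcripts apart. Hspa9, the mitochondrial Hsp70, averaged -0.19 ± 0.17 with 3 of 4 mice below 0, over 4 probes that averaged between -0.81 and 0.16. Hsph1, an Hsp110 exchange factor, averaged -0.19 ± 0.28. In all, 7 of 8 Hsp70 and Hsp110 genes lay below 0, with a family median of -0.15 and mouse medians of -0.51, 0.16, -0.17 and -0.11.

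**Figure D2:**
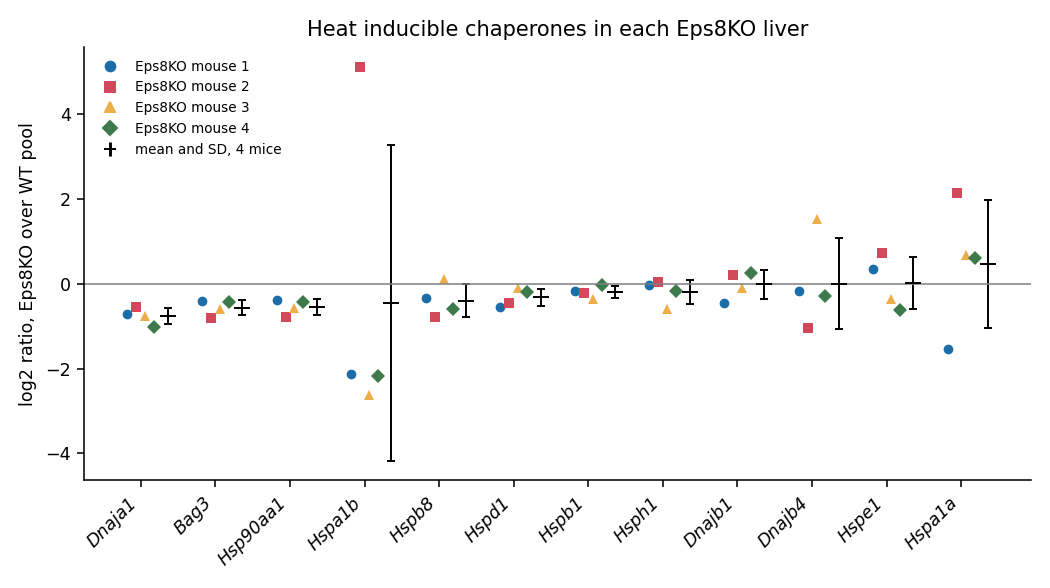
Log2 ratio (Eps8KO over WT pool) of the 12 heat inducible chaperones, with 1 symbol for each of the 4 mice and their mean with SD beside them, ordered by mean. Dnaja1, Bag3, Hsp90aa1, Hspd1 and Hspb1 have all 4 mice below 0, while Hspa1b and Hspa1a spread over several log2 units, with mouse 2 highest in both.

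The 2 genes of the mitochondrial chaperonin, which share the promoter stretch described above, differed in their order over the mice in the averaged ratios. Hspd1, the Hsp60 subunit, had ratios of -0.54, -0.44, -0.10 and -0.20, all below 0, with a mean of -0.32 ± 0.21 (adjusted p = 0.906, limma) and probes at -0.52 and -0.11. Hspe1, the Hsp10 lid, had ratios of 0.36, 0.72, -0.36 and -0.62, with a mean of 0.02 ± 0.62. In these averages, mice 1 and 2 were the lower ones for Hspd1 and the higher ones for Hspe1. The order was not the same in both orientations or probes. Mouse 1 was the lowest for Hspe1 with Eps8KO RNA in Cy5 (-0.39) and the highest in Cy3 (1.11). For Hspd1, mouse 1 was at -1.14 in 1 probe and at 0.07 in the other.

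Among small heat shock proteins, which hold unfolded proteins without using ATP, Hspb1 had ratios of -0.17, -0.22, -0.35 and -0.03. All 4 were below 0 and the mean was -0.19 ± 0.13 (adjusted p = 0.906, limma), but it was 0.01 with Eps8KO RNA in Cy5 and -0.39 with Eps8KO RNA in Cy3. Hspb8, the small partner of Bag3, averaged -0.40 ± 0.39 with mouse 3 above 0. The family median of 5 genes was -0.19, and the other 3, Hspb2, Hspb3 and Hspb7, which are best known from muscle, lay between -0.44 and 0.20.

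CCT is the ring-shaped chaperonin of the cytosol that folds actin and tubulin. Its genes had ratios from -0.38 in Cct3 to 0.83 in Cct4, and the median over 9 genes was -0.07, with medians in the mice of -0.08, -0.23, -0.05 and -0.19. Cct3 had ratios of -0.36, -0.42, -0.11 and -0.62, all below 0, with a mean of -0.38 ± 0.21 (unadjusted p = 0.0439, adjusted p = 0.906, limma). Cct5 had 4 mice below 0 as well and averaged -0.23 ± 0.12, but this was 0.25 with Eps8KO RNA in Cy5 and -0.70 with Eps8KO RNA in Cy3. Cct4 had ratios of 1.92, -0.49, 0.86 and 1.02, so that mouse 2 stood apart from the others. Tcp1, the gene of the CCT alpha subunit, which the symbols did not select, averaged -0.20 ± 0.18 with 3 of 4 mice below 0. Mean ratios of the 9 genes lay on both sides of 0, with 6 below it.

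Prefoldin passes unfolded actin and tubulin on to CCT. Pfdn6 averaged -0.12 ± 0.42. Pfdn1 averaged 0.99 ± 2.61, and the 4 mice were at -0.37, 0.26, -0.78 and 4.85. The last value rests on 1 array, whose ratio of 16.24 is the highest value on it and is repeated for 77 spots. Without the highest and lowest value of each array, the mean of Pfdn1 was 0.12. Probes of Dnaja4 and Cct6b also held such a value on 1 array each, at 15.91 in mouse 2 and 15.76 in mouse 3.

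The J-domain proteins of classes A, B and C, which bring clients to Hsp70 and start its ATPase cycle, had medians of -0.02, -0.01 and -0.01 over 3, 9 and 17 measured genes. Dnajb1, the class B protein used with Hspa1a as a marker of heat shock, had ratios of -0.45, 0.22, -0.09 and 0.27, on both sides of 0, with a mean of -0.01 ± 0.33. The widest ratios of class C came from genes with missing values. Dnajc28, measured on 6 arrays, had ratios of -2.04, -0.28, -2.04 and -2.83 and a mean of -1.79 ± 1.08 (unadjusted p = 0.0135, adjusted p = 0.848, limma). Dnajc17, a protein linked to splicing whose 2 probes gave values on 6 arrays, had ratios of 1.79, 0.86, 0.27 and 2.45 and a mean of 1.34 ± 0.97 (unadjusted p = 0.0262, adjusted p = 0.906, limma). Its mean was -0.12 with Eps8KO RNA in Cy5 and 1.39 with Eps8KO RNA in Cy3, and mice 1 and 4 had values in Cy3 alone, so the dyes were not balanced in it. In Dnajc28 mice 1 and 3 had values in Cy5 alone. All mice lay on 1 side of 0 in each of these genes, and neither could enter the fit with a dye term. Dnaja4, whose array limit value was given above, had ratios of 0.19, 3.71, 0.20 and 0.78 and a mean of 1.22 ± 1.68. That mean was 0.19 without the limit values. Dnajb13, a J-domain protein of sperm and cilia, averaged -0.37 ± 0.39, with -1.78 with Eps8KO RNA in Cy5 and 1.62 with Eps8KO RNA in Cy3.

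**Figure D3:**
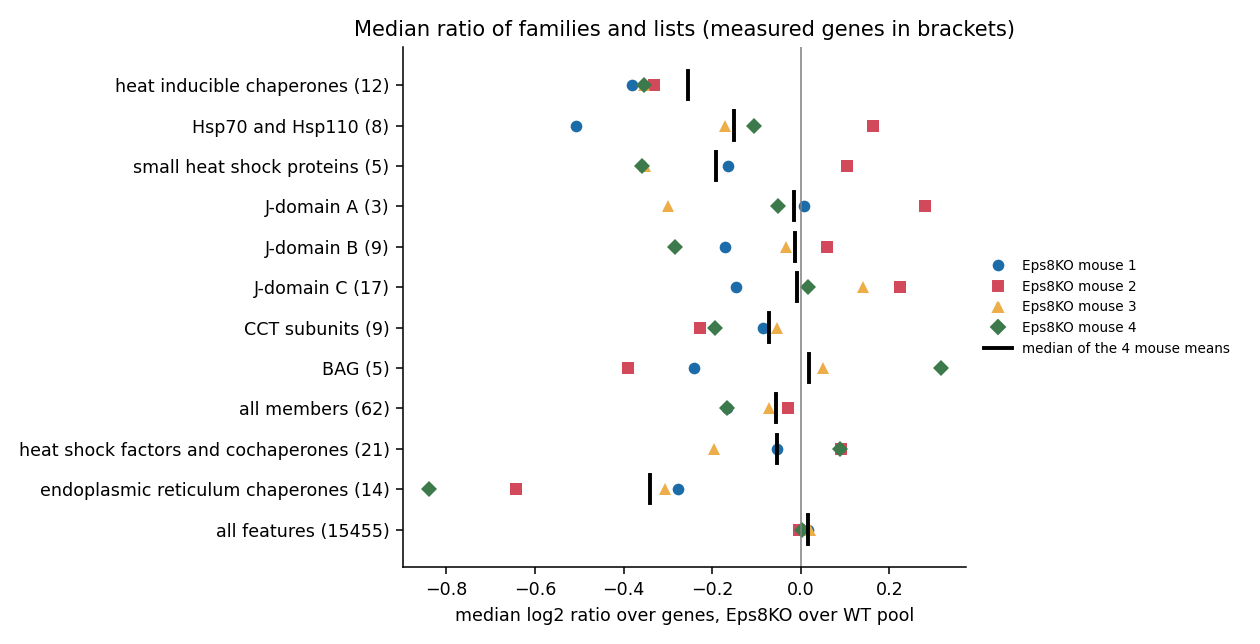
Median log2 ratio (Eps8KO over WT pool) over the measured genes of each family and list, with 1 symbol for each of the 4 mice and a bar for the median over the genes' means, for families with at least 3 measured genes. The 4 mice lie together below 0 for the heat inducible list, all below 0 but wider apart for endoplasmic reticulum chaperones, and on both sides of 0 for most families.

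Dnajb11, a J-domain protein of the endoplasmic reticulum that serves Hspa5, had ratios of -0.59, -0.51, -0.12 and -1.03. All mice and all 8 arrays lay below 0, and the mean was -0.56 ± 0.37 (unadjusted p = 0.0333, adjusted p = 0.906, limma). The means of both orientations were close, at -0.49 with Eps8KO RNA in Cy5 and -0.64 with Eps8KO RNA in Cy3. Hsp90b1, the Hsp90 of the endoplasmic reticulum, was the 1 gene with the endoplasmic reticulum stress element. It had ratios of 1.07, -0.48, -0.20 and -0.08 on 7 arrays, with mouse 1 alone above 0. Mouse 1 had a value in Cy5 alone, so the dyes were not balanced in it. The mean of Hsp90b1 was 0.33 with Eps8KO RNA in Cy5 and -0.585 with Eps8KO RNA in Cy3. In a list of other chaperones and stress genes of the endoplasmic reticulum, the median was -0.34. Of its 14 measured genes 12 lay below 0, beside 47.2% of all features. At an unadjusted p under 0.05 in limma, 6 were lower, beside 3.09%, and 0 higher, beside 2.15%. Over the 14 genes the median was -0.25 with Eps8KO RNA in Cy5 and -0.74 with Eps8KO RNA in Cy3. It was -0.12 and -0.81 over the genes with values on all 4 arrays of that orientation. Its lowest p values were those of Pdia4, a disulfide isomerase (-0.85 ± 0.23, adjusted p = 0.635, limma), and Hspa5, the Hsp70 of that compartment (-1.20 ± 0.50, adjusted p = 0.75). The low ratios of such genes took part in finding how rows are named, as did those of acute phase genes, and so cannot support the naming or be supported by it.

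Of a list of 32 heat shock factors, cochaperones of Hsp70 and Hsp90 and other chaperones, 21 genes were measured, with no heat shock factor among them. They include cochaperones, the nucleotide exchange factors Grpel1 and Grpel2 of mitochondria, Tcp1 and chaperones such as Trap1, Clpb, Cryab and Serpinh1. Their median ratio was -0.05. At an unadjusted p under 0.05, 0 were lower, beside 3.09% of all features, and 1 was higher, beside 2.15%. The higher gene was Sgtb, a cochaperone with tetratricopeptide repeats (0.71 ± 0.54, adjusted p = 0.906, limma), with all 4 mice above 0. On 7 arrays its mean was -0.78 with Eps8KO RNA in Cy5 and 1.90 with Eps8KO RNA in Cy3, so its sign differed between orientations. Ppp5c, a phosphatase that binds Hsp90, averaged 0.68 ± 0.62, which combines -2.28 with Eps8KO RNA in Cy5 and 3.65 with Eps8KO RNA in Cy3 (dye term, adjusted p = 0.00579, limma). Stip1, which joins Hsp70 to Hsp90, averaged 0.45 ± 0.72, and Hsbp1, which binds Hsf1, -0.20 ± 0.25.

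The 2 dye orientations often gave different ratios for the same gene. The median size of a chaperone's ratio was 0.19, and the median size of the difference between its 2 orientations was 0.73. In 45 of 62 chaperones the orientations had opposite signs, and 42 were lower with Eps8KO RNA in Cy5 and 20 higher. Shares of all features for these counts are not given here. With Eps8KO RNA in Cy5 the median ratio was -0.27 over the 62 chaperones and -0.19 over all features. With Eps8KO RNA in Cy3 it was 0.16 and 0.24. The dye term was called at an adjusted p under 0.05 for 7 of 52 chaperones (13.5%), beside 14.2% of 11727 features. The largest of these 7 dye terms were those of Pfdn6 and Dnajc7, and Hsph1 was among them. For the genotype, that fit called 0 of the 52 chaperones, beside 0.0426% of features higher and 0.256% lower. Without adjustment, 7 of the 52 had a p under 0.05 in it. The matching share of all features is not given here, so an excess cannot be read from this count. That fit also treats the 8 arrays nearly as separate replicates. On all 8 arrays, 3 of 52 chaperones lay below 0 (Dnaja1, Hsp90aa1 and Dnajb11), beside 0.571% of features, and 0 lay above 0, beside 0.375%.

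**Figure D4:**
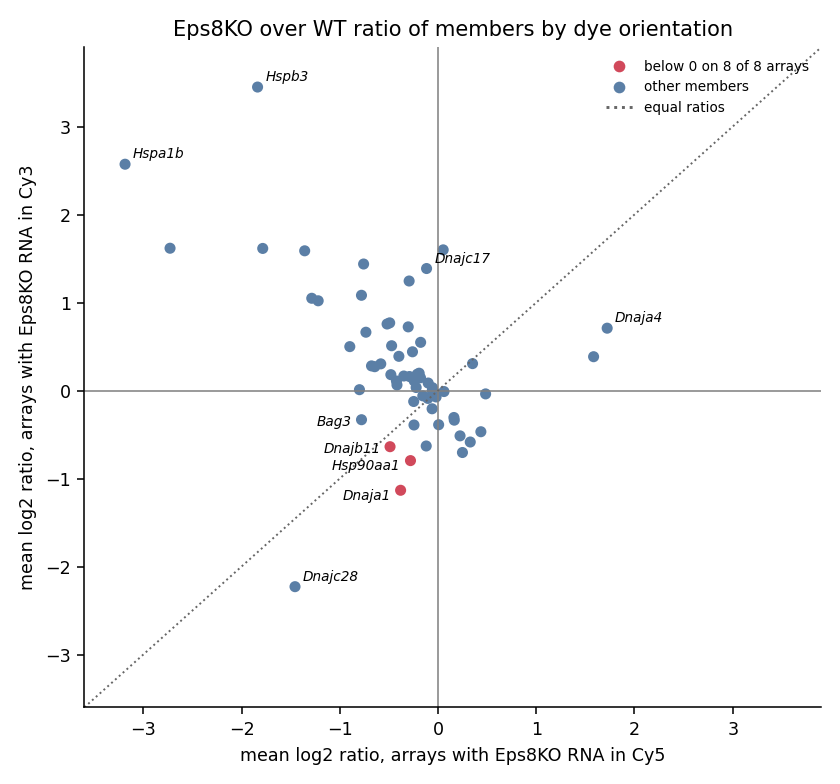
Mean log2 ratio (Eps8KO over WT pool) of each of the 62 measured chaperones on arrays with Eps8KO RNA in Cy5 (horizontal axis) and in Cy3 (vertical axis), with the line of equal ratios. Most points lie in the upper left, with opposite signs, and Dnaja1, Hsp90aa1 and Dnajb11, in red, lie below 0 on both axes and on each of the 8 arrays.

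Of the 62 chaperones, 26 had several probes with values in all mice. In 13 of them all probes had the same sign, in 4 (Cct6b, Dnaja4, Hsp90aa1 and Pfdn1) the probes were apart by more than 1 log2 unit, and the median range was 0.42. The range of probes thus exceeded the median size of a ratio. Bag3, Hspd1 and Hspb8 were among those with probes all below 0, Bag4 and Dnajc7 among those with probes all above it.

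**Figure D5:**
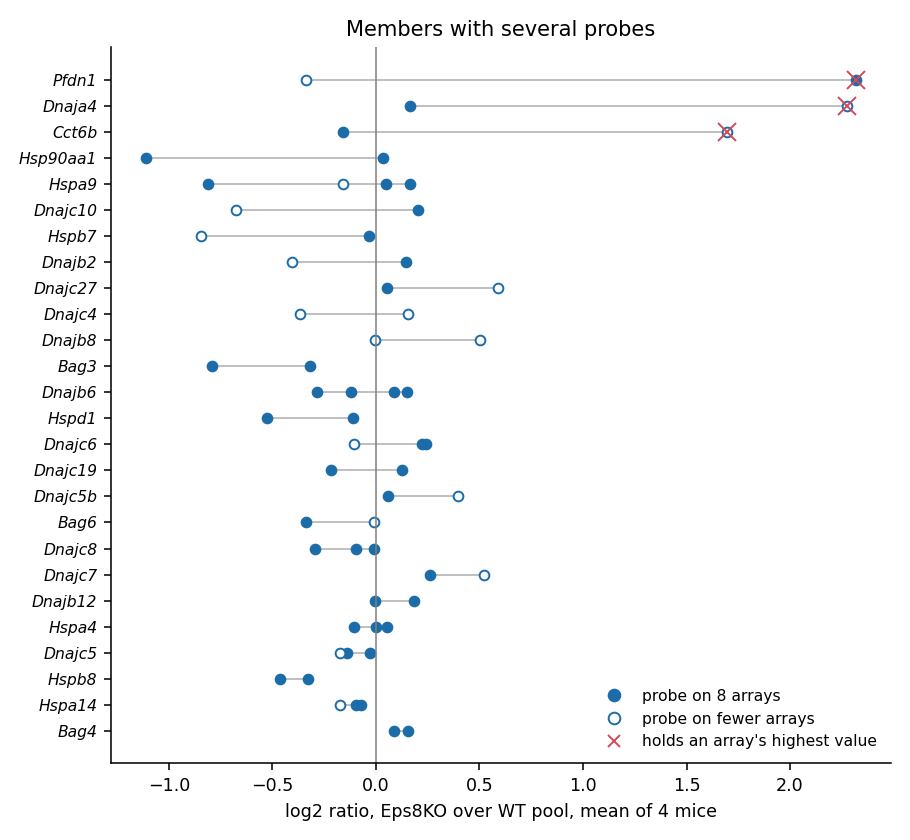
Mean log2 ratio (Eps8KO over WT pool, mean of 4 mice) of every probe of the 26 chaperones with several probes, joined by a line for each gene and ordered by range. Filled circles are probes with a value on 8 arrays, open circles those with fewer, and crosses mark the 3 probes that hold an array's highest value, which give the widest ranges.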

How the data were processed

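Per the methods of the study, RNA was reverse transcribed, labelled indirectly with Cy3 or Cy5 and hybridised to cDNA arrays. The values deposited by the authors are log2 ratios, taken as Cy5 over Cy3 from the dyes in the labels. The methods describe total intensity normalisation in MIDAS with filters on background and dye swaps. Whether the deposited values followed those steps is not given in the sources used here. Array means lay between -0.39 and -0.18. Of 20355 rows, 17968 to 18802 had a value on each array. Spot intensities were not analysed here, so precision is limited by how many arrays there are. Each of the 8 columns entered the averages.

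Names came from the platform's probe table, with probe number = row number + 32, which named 12367 rows. This shift was found from the values in earlier work. Over 14172 shifts, 18 probes of acute phase genes had their lowest median ratio at this one (-1.46, next -0.67). Acute phase, endoplasmic reticulum chaperone, liver and housekeeping genes took part in finding the shift, so this is no separate check of it. All 65 chaperones matched RefSeq by gene ID. The sign was turned where Eps8KO RNA was in Cy3, after which 75 spots were below 0 and 54 above 0 on all 8 arrays, of 13328. Values were averaged over the 2 arrays of each mouse, then over probes. The 15455 features present in all 4 mice were set against 0, two-sided, in limma 3.58.1 (lmFit, eBayes) under R 4.3.3, with Benjamini-Hochberg adjustment, and the fit was tested on simulated data. Python 3.11.15, NumPy 2.4.6, pandas 2.3.3 and Matplotlib 3.10.9 gave the summaries, motif searches and figures. Named genes were those past 1.6-fold with an unadjusted p under 0.05 in all 4 mice, the 2 with the smallest p in each family and each other list, and 13 chaperones commonly used to describe a heat shock response. Others were chosen after their values were seen. The members, families and lists were chosen with earlier results of these data known. Alternatives were array centring, filters on missing, discordant and limit values, single orientations, other ways to combine probes, unshifted names, other models and thresholds, and each mouse left out.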

Additional observations from a re-analysis of the deposited data

Results flagged for a closer look

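Among the 23 chaperones named by rule, 2 had 1 mouse further from the others than Dixon's limit for 4 values allows. Chance alone exceeds that limit in about 1 of 20 groups. Dnaja4, a class A J-domain protein, was at 3.71 in mouse 2 and between 0.19 and 0.78 in the other Eps8KO mice, on the log2 scale against the WT pool. Hspa1b, an inducible Hsp70 measured on 5 arrays, was at 5.12 in mouse 2 and between -2.62 and -2.12 in the others. For Hspa1b mouse 2 had a value in Cy3 alone and mice 1 and 4 in Cy5 alone, so mouse and dye cannot be told apart. The value of Dnaja4 in mouse 2 includes a ratio of 15.91, the highest on its array, which 93 spots share. Some chaperones outside those 23 exceeded the limit too. Dnajc9 was at -0.75 in mouse 1 and between 0.224 and 0.265 in the others. Dnajc11, measured on 6 arrays, was at 3.83 in mouse 2 and between -0.61 and -0.25 in the others. For Dnajc11 mice 1 and 2 had values in Cy3 alone.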

How the results depend on the processing

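When rows were named without the shift of 32, so that other rows were read, 13 of 25 named genes with a value had the opposite sign. Of these, 6 had passed an unadjusted p under 0.05: Dnaja1 (0.71), Cct3 (0.37), Hsp90aa1 (0.11), Dnajb11 (0.0074), Hspa5 (0.16) and Sgtb (-0.62). The 0 calls at an adjusted p under 0.05 stayed 0 in each direction under every alternative run. At an unadjusted p under 0.05, the 1 chaperone higher became 0 with probes on all 8 arrays only, with the filter on dye swaps that differed by more than 1, without moderation and with the dye term and mouse block, 8 with Eps8KO RNA in Cy3 only and 2 with 1 feature per probe, and it ranged over 0 to 2 with a mouse left out. The 6 lower became 10 with Eps8KO RNA in Cy5 only, 0 without the shift, 2 at 1.6-fold, and 3 to 6 with a mouse left out (3 without mouse 1). The 9 chaperones below 0 in all mice became 18 in Cy5 only, 3 without the shift, and 11 to 17 with a mouse left out, where fewer mice must share a sign. Medians with Eps8KO RNA in Cy5 only were -0.25 for all chaperones, -0.29 for heat inducible ones, -0.58 for small heat shock proteins, 0.44, -0.35 and -0.19 for J-domain classes A, B and C, 0.0527 for CCT, -0.50 for BAG, -0.26 for cochaperones and -0.12 for endoplasmic reticulum chaperones. In Cy3 only they were 0.15 for all chaperones, -0.0115 for heat inducible ones, 0.10 for small heat shock proteins, -0.47 and 0.44 for J-domain classes A and C, 0.16 for CCT, 0.51 for BAG, 0.16 for cochaperones and -0.81 for endoplasmic reticulum chaperones. Without the shift they were -0.0274 for heat inducible ones, 0.25 for small heat shock proteins, 0.053 for CCT and 0.16 for endoplasmic reticulum chaperones. The heat inducible median was -0.20 on all 8 arrays and -0.23 with the filter on dye swaps, which gave -0.06 for endoplasmic reticulum chaperones. With a mouse left out, medians ranged over -0.08 to -0.04 (all chaperones), -0.27 to -0.22 (heat inducible), -0.20 to -0.03 (Hsp70 and Hsp110), -0.42 to 0.0122 (small heat shock proteins, lowest without mouse 1), -0.12 to 0.08, -0.09 to 0.01 and -0.0228 to 0.22 (J-domain classes A, B and C), -0.10 to -0.07 (CCT), -0.25 to 0.11 (BAG), -0.10 to -0.03 (cochaperones) and -0.60 to -0.34 (endoplasmic reticulum chaperones). Over all features, medians of the available values were -0.19 with Eps8KO RNA in Cy5 and 0.24 with Eps8KO RNA in Cy3. Shares of all features called in a single orientation are not given here. Where only the orientation or the filter differed, the cause was not tested. No paired analysis was possible because the arrays hold 1 group, each mouse against the same WT pool. The 4 mice limit every adjusted p.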
